A study of Mus musculus with 8 samples.

Results

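The genes described here are the *Cyp2b* genes of mouse liver and the genes through which they are usually controlled and supplied: *Cyp2b9*, *Cyp2b10*, *Cyp2b13*, the receptor genes *Nr1i3*, *Nr1i2* and *Rxra*, and the reductase gene *Por*. They were chosen by name, as the rows of a liver count table whose Ensembl identifiers carry these 7 symbols in the GRCm38 annotation, and all 7 were among the 18095 genes of the table. The table came from RNA-seq of livers of male mice aged 12 weeks, 4 HFD WT mice and 4 HFD Inpp4b-/- mice, 1 library per mouse. WT mice carried no deletion, and Inpp4b-/- mice were labelled as homozygous for a deletion of *Inpp4b*, a gene for a phosphoinositide phosphatase. Both groups received a high-fat diet (HFD), which the study's methods describe. The sample labels give C57BL/6 as the strain background, whereas the methods describe breeding into FVB, so the background of these mice is uncertain.

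CYP2B enzymes are cytochrome P450s of the endoplasmic reticulum that oxidise drugs, steroids and fatty acids. *Cyp2b10* is the classical gene induced by phenobarbital, through the constitutive androstane receptor (CAR, encoded by *Nr1i3*) and in part the pregnane X receptor (PXR, encoded by *Nr1i2*), each bound to DNA as a pair with RXRA. *Cyp2b9* and *Cyp2b13* are known as genes with higher expression in female than in male liver, under the control of growth hormone, and every P450 of this kind needs electrons from POR.

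The libraries held 25893430 to 36662531 counts. Of the 18095 genes, 14866 passed the expression filter and were tested, and *Cyp2b13* was the one member below it. *Inpp4b* itself had 5 to 20 counts in the libraries labelled HFD WT and 9 to 33 counts in those labelled HFD Inpp4b-/-, so it was not lower where the label says it was deleted. A count over a whole gene cannot tell which of its exons were read, and every direction given here follows the labels. The 10 hepatocyte markers were all tested and none passed edgeR's threshold, which 1.17% of all tested genes passed. Their summed level was 77250 to 83560 CPM (counts scaled to a normalised library total of 1e+06) in HFD WT and 79290 to 98980 CPM in HFD Inpp4b-/-. The summed levels of the lymphocyte and neutrophil markers were at most 4.88 CPM in any library. None of the 7 Kupffer cell, 6 stellate cell, 5 endothelial and 5 cholangiocyte markers passed, with median log2 fold changes of 0.44, 0.25, -0.07 and 0.49. With so few markers, none passing is near the share of all tested genes. At edgeR's unadjusted p under 0.05, 3 of the 6 stellate cell markers were higher and 0 lower. Of the hepatocyte and of the cholangiocyte markers 1 was higher and 1 lower, and of the others 0. Over all tested genes the shares were 6.8% higher and 7.14% lower. The summed Kupffer cell level was 49.4 to 145 CPM in HFD WT and 102 to 183 CPM in HFD Inpp4b-/-, and that of the cholangiocyte markers 23.7 to 31.6 CPM and 29.7 to 40.6 CPM. Of 5 erythroid markers, the globin gene *Hba-a2* was called lower (log2 fold change -2.92), while the median of the list was 0.10 and its near copy *Hba-a1* had a log2 fold change of 0.85. The part of these cells in the members' values was not tested. In whole liver, fewer cells of a type and less RNA per cell cannot be told apart.

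*Cyp2b9*, *Cyp2b13* and *Cyp2b10* lie in 1 cluster of related genes on chromosome 7. Their upstream sequences are shown to describe how alike the genes are there. *Cyp2b9* and *Cyp2b13* are near copies, while *Cyp2b10* is not. Whether these sequences bear on the levels was not tested. The sequences are RefSeq's for GRCm38.p6, on the + strand, and run to the start of the gene. Capitals mark, in *Cyp2b9* and *Cyp2b13*, the bases at which these differ from each other, and in *Cyp2b10* the bases that differ from *Cyp2b9* or have no partner in it. The last 38 bases of the *Cyp2b10* window are left out, since the GENCODE annotation counts them as part of the gene. The regions are chr7:26173159-26173408, chr7:26061245-26061494 and chr7:25897408-25897619.
Cyp2b9: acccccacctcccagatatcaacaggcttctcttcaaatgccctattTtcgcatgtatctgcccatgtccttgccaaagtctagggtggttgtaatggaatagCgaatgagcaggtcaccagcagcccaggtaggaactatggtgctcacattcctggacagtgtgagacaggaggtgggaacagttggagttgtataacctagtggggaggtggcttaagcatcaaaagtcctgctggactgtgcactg
Cyp2b13: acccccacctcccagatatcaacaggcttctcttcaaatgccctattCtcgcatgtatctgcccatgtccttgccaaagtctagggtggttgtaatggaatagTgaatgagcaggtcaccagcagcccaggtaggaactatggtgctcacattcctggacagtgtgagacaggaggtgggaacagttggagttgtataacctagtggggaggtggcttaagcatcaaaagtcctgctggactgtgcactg
Cyp2b10: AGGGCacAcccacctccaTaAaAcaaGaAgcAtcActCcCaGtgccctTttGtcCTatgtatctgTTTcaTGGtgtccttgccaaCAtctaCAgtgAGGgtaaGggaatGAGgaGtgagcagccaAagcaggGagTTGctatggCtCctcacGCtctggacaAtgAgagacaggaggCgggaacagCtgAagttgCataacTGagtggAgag

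Over these 250 bases *Cyp2b9* and *Cyp2b13* were identical at 248 positions (99.2%), and the differences are T48C and C104T, with the *Cyp2b9* base first and positions counted from 1 at the 5′ end of the window. The *Cyp2b9* and *Cyp2b10* windows matched at 182 of 240 aligned bases (75.8%). The half-site that nuclear receptors bind, AGGTCA, was searched on both strands and occurred once in *Cyp2b9* and once in *Cyp2b13*, on the + strand, beginning 138 bases before the start. The full *Cyp2b10* window held no match, and 14.0% of 32536 mouse promoter windows of this length held at least 1. The direct repeat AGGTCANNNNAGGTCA, in which each half-site overlaps the first motif, was found in 0.0154% of the windows and in none of the 3 *Cyp2b* genes. The same was true of the STAT5 motif TTCNNNGAA (7.04% of all windows), the sterol regulatory element TCACNCCAC (1.04%) and the TATA box TATAAA (12.3%). A match or its absence in these windows describes letters and not binding, and bases farther upstream were not searched.

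*Cyp2b9* and *Cyp2b13*, each with 1473 coding bases before the stop codon, were identical at 92.7% of aligned bases, *Cyp2b9* and *Cyp2b10* at 87.8%, and *Cyp2b10* and *Cyp2b13* at 88.9%. The longest coding run shared by *Cyp2b9* and *Cyp2b13* was 113 bases. Of all stretches of 150 bases in the annotated transcripts, the length of 1 read, 0% in *Cyp2b9*, 0% in *Cyp2b10* and 5.04% in *Cyp2b13* occurred unchanged in a transcript of another gene, for *Cyp2b13* only in the pseudogene Gm45225. At 100 bases the shares were 1.18% in *Cyp2b9*, 9.29% in *Cyp2b13* and 0% in *Cyp2b10*, and at 50 bases 11.2%, 27.3% and 8.7%. For *Nr1i3*, *Nr1i2*, *Rxra* and *Por* the share was 0% at each length. The forward qRT-PCR primers that the study designed show how close the near copies are, since each spans exons 5 and 6 in the coding sequence of its gene and has a single base, in capitals, that differs in the other gene. Both reverse primers occur unchanged in *Cyp2b9* and *Cyp2b13*, and that of *Cyp2b9* also in *Cyp2b10* and *Cyp2b23*. Each pair thus differs between the near copies only at that forward base. The *Cyp2b9* forward primer begins at chr7:26198594 and the *Cyp2b13* forward primer at chr7:26086014.
Cyp2b9 forward primer: ggagaagtcaaaccacaacacA
Cyp2b13 forward primer: Gctgaggatggagaaggaga

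*Cyp2b9* (ENSMUSG00000040660, chr7:26173411-26210661) made up nearly all *Cyp2b* RNA in the livers labelled HFD Inpp4b-/- and was at a low level in HFD WT. Its level was 172.5, 132.4, 101.9 and 29.21 CPM in replicates 1 to 4 of that group, from 6217, 5039, 3168 and 1040 counts. Across HFD WT replicates 1 to 4 the level was 1.659, 10.33, 1.213 and 0.8449 CPM, from 45, 328, 36 and 22 counts. Every library labelled HFD Inpp4b-/- was above every HFD WT library, and the nearest values of the groups were 29.21 CPM in replicate 4 of the first and 10.33 CPM in replicate 2 of the second. The log2 fold change between genotypes was 4.93 (standard error 0.85, n = 4 per group). The genes were selected with this contrast known, so no test is attached to the fold changes of the members. Of the 6 tested members, *Cyp2b9* alone passed the threshold used for all genes (edgeR, false discovery rate under 10% and fold change over 1.3), which 1.17% of all tested genes passed. It was also the one tested member whose groups did not overlap, as held for 8.72% of all tested genes (4.63% with the higher and 4.09% with the lower values in HFD Inpp4b-/-). Without HFD WT replicate 1 or Inpp4b-/- replicate 2 or 3 it did not pass, at log2 fold changes of 4.70, 4.82 and 4.96, and without HFD WT replicate 2 its log2 fold change was 6.44.

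**Figure D1:**
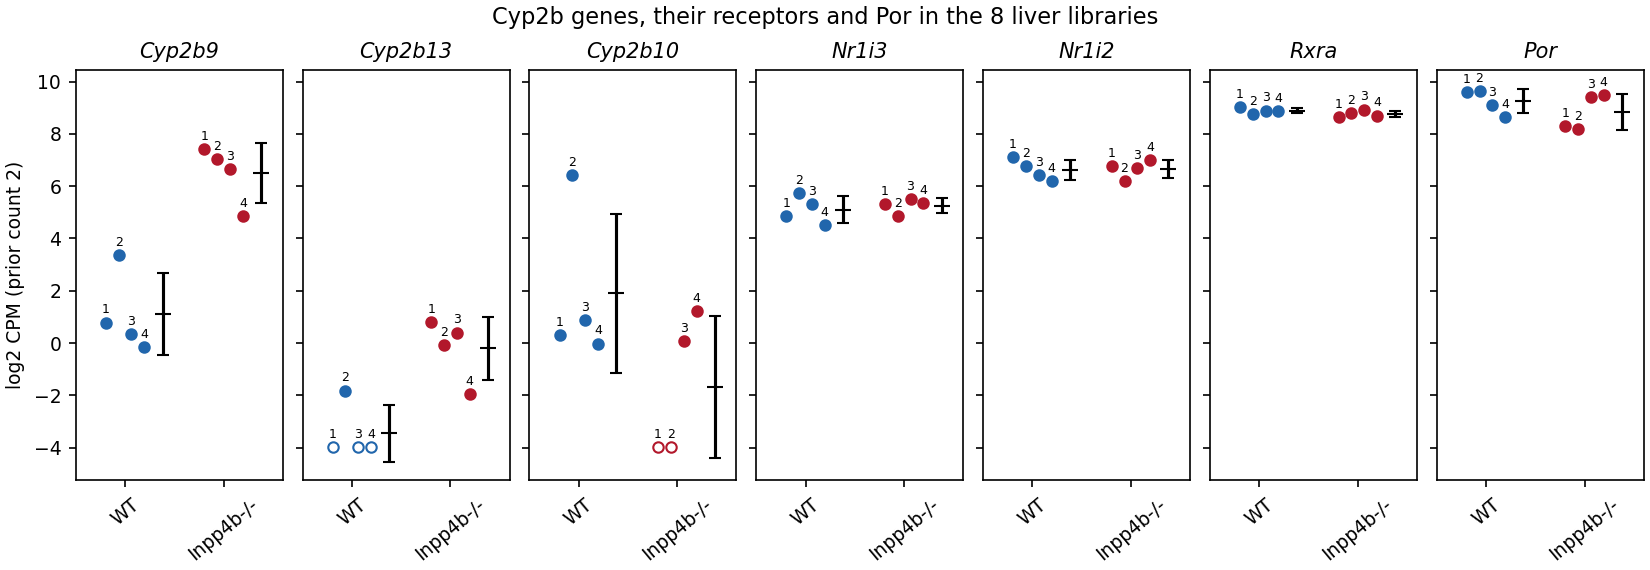
Level of each of the 7 genes (log2 CPM with a prior count of 2, vertical axis) in the 4 HFD WT libraries (blue) and the 4 libraries labelled HFD Inpp4b-/- (red). Digits are replicate numbers, open circles are libraries with 0 counts, and the black bars give mean ± SD over 4 libraries. *Cyp2b9* is separated by group, *Cyp2b10* and *Cyp2b13* have a far HFD WT replicate 2, and the groups overlap for the 3 receptor genes and *Por*.

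*Cyp2b13* (ENSMUSG00000040583, chr7:26061497-26096197), the near copy of *Cyp2b9*, was scarcely expressed. Replicates 1 to 4 labelled HFD Inpp4b-/- held 60, 34, 39 and 7 of its counts, and HFD WT replicates 1 to 4 held 0, 7, 0 and 0. The groups met at 7 counts, in replicate 4 of the first and replicate 2 of the second, which are also the libraries nearest to the other group for *Cyp2b9*. The mean was 1.003 ± 0.623 CPM (SD, n = 4) against 0.0551 ± 0.110 CPM (SD, n = 4), a log2 ratio of 4.18. Fits that tested the gene gave log2 fold changes of 3.60 to 8.0, the highest without HFD WT replicate 2, where it passed the threshold. A count of 0 allows up to 3 counts, on average 0.109 CPM in the 3 HFD WT libraries other than replicate 2. Against that limit the mean of the libraries labelled HFD Inpp4b-/- was at least 9.2-fold higher. This limit covers counting error only and leaves out HFD WT replicate 2. The bound holds for the mean and not for each library, as replicate 4 labelled HFD Inpp4b-/- (0.1966 CPM) was below HFD WT replicate 2 (0.2205 CPM). The table holds genes with a read in every library of one genotype, and *Cyp2b13* met this through the group in which it was high.

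In the 4 libraries labelled HFD Inpp4b-/- the *Cyp2b13* count was 0.965%, 0.675%, 1.23% and 0.673% of the *Cyp2b9* count, from 7 to 60 counts. In HFD WT replicate 2 it was 2.13%, from 7 counts. Whether some reads of *Cyp2b9* were counted as *Cyp2b13* was not tested.

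*Cyp2b10* (ENSMUSG00000030483, chr7:25897620-25926624) had a different pattern, which rested on 1 library. HFD WT replicates 1 to 4 held 32, 2757, 53 and 24 counts of it, or 1.18, 86.83, 1.785 and 0.9217 CPM. The counts of replicates 1 to 4 labelled HFD Inpp4b-/- were 0, 0, 31 and 80, or 0, 0, 0.9975 and 2.247 CPM, where a count of 0 allows up to 0.0832 CPM in replicate 1 and 0.0788 CPM in replicate 2. Replicate 4 of that group was above 3 of the HFD WT libraries, so the groups overlapped. The log2 fold change was -4.82 (standard error 1.73, n = 4 per group) and did not pass the threshold. HFD WT replicate 2 set most of it, and without that library the log2 fold change was -0.69 and the HFD WT mean fell from 22.7 to 1.296 CPM. DESeq2 gave *Cyp2b10* no adjusted p. Like *Cyp2b13*, *Cyp2b10* had a read in every library of only one genotype. It was thus in the table through HFD WT, the group with its higher mean.

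**Figure D2:**
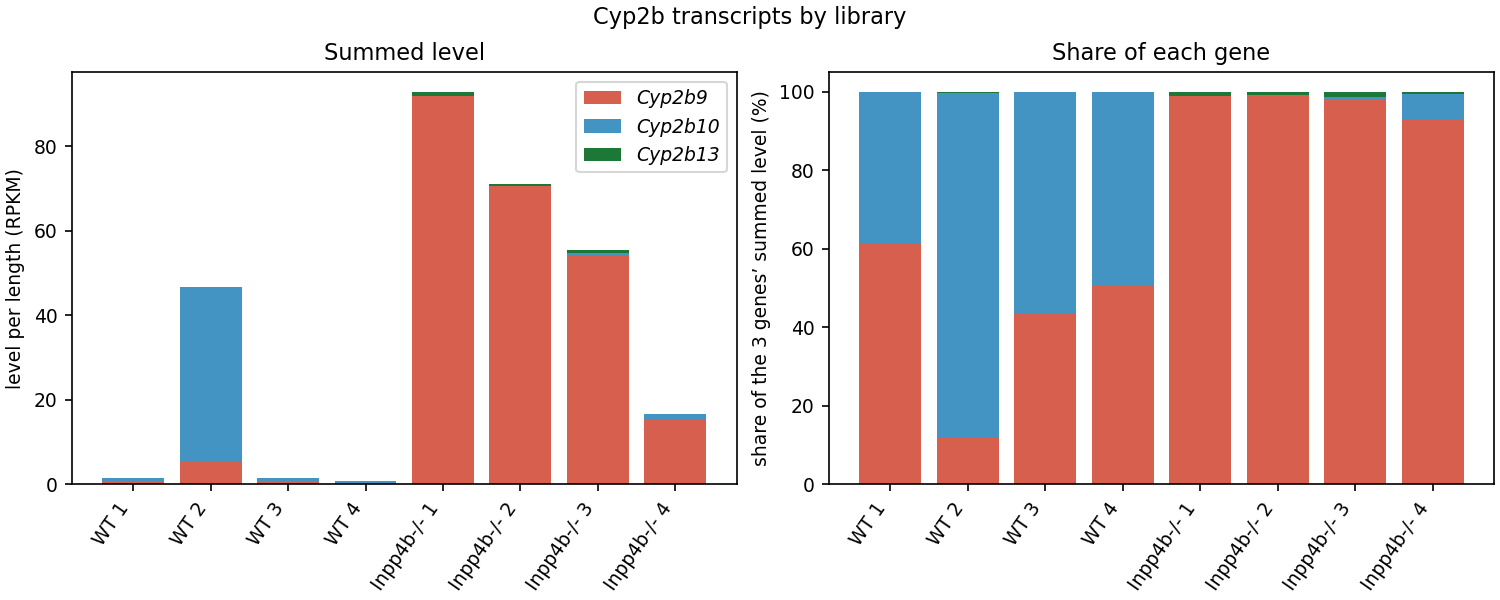
Level per length (RPKM, left) and share of the summed level (percent, right) of *Cyp2b9*, *Cyp2b10* and *Cyp2b13* in each of the 8 libraries, with replicate numbers on the horizontal axis. The summed level was 16.7 to 92.8 RPKM in the libraries labelled HFD Inpp4b-/- and 46.7 RPKM in HFD WT replicate 2, against at most 1.49 RPKM in the other HFD WT libraries.

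Both the amount and the composition of *Cyp2b* RNA differed between libraries. Per length, as RPKM (CPM per kilobase of exon), the summed level of the 3 genes was 92.8, 71.1, 55.5 and 16.7 RPKM in replicates 1 to 4 labelled HFD Inpp4b-/-, and *Cyp2b9* made up 93.0% to 99.3% of it. In HFD WT replicates 1, 3 and 4 the sum was 1.44, 1.49 and 0.887 RPKM, with *Cyp2b9* at 61.3%, 43.3% and 50.8% and *Cyp2b10* making up the rest. HFD WT replicate 2 had 46.7 RPKM, which was within the range of the libraries labelled HFD Inpp4b-/-, but 88.0% of it was *Cyp2b10* and 11.8% *Cyp2b9*. The bar plot of *Cyp2b* levels shows these proportions.

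*Nr1i3* (ENSMUSG00000005677, chr1:171213970-171220701), which encodes CAR, was at 28.65, 52.97, 39.41 and 23.0 CPM in HFD WT replicates 1 to 4. It was at 39.57, 28.7, 45.4 and 40.8 CPM in replicates 1 to 4 labelled HFD Inpp4b-/-. The highest value of the 8 was that of HFD WT replicate 2, the library with the high *Cyp2b10* count, and the lowest was HFD WT replicate 4. All values labelled HFD Inpp4b-/- lay within the HFD WT range. The log2 fold change was 0.10 (standard error 0.24, n = 4 per group). Without HFD WT replicate 4 it was -0.06.

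*Nr1i2* (ENSMUSG00000022809, chr16:38248323-38294824, on the minus strand), which encodes PXR, was at 137.3, 108.7, 86.64 and 72.51 CPM in HFD WT replicates 1 to 4 and at 109.7, 73.74, 102.7 and 127.9 CPM in replicates 1 to 4 labelled HFD Inpp4b-/-. HFD WT held both the highest and the lowest value. The log2 fold change was 0.03 (standard error 0.21, n = 4 per group), and its sign changed without Inpp4b-/- replicate 4 (-0.09), HFD WT replicate 3 (-0.04) or HFD WT replicate 4 (-0.10).

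*Rxra* (ENSMUSG00000015846, chr2:27676440-27762957), the shared partner of both receptors, was the steadiest member. It was at 517.5, 438.2, 475.8 and 470.1 CPM in HFD WT replicates 1 to 4 and at 404.7, 444.3, 489.0 and 416.6 CPM in replicates 1 to 4 labelled HFD Inpp4b-/-. The groups overlapped, and the log2 fold change was -0.12 (standard error 0.09, n = 4 per group). Its 2 RefSeq promoter windows held 2 matches to AGGTCA, 1 on each strand.

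*Por* (ENSMUSG00000005514, chr5:135670033-135735326), the electron donor of microsomal P450s, was at 781.7, 804.9, 544.7 and 404.9 CPM in HFD WT replicates 1 to 4. In the libraries labelled HFD Inpp4b-/- it was at 313.6 and 290.2 CPM in replicates 1 and 2 and at 675.0 and 725.4 CPM in replicates 3 and 4. The lowest values of the 8 were thus in the replicates in which *Cyp2b10* was counted 0 times and *Cyp2b9* was highest. The groups overlapped, and the log2 fold change was -0.34 (standard error 0.33, n = 4 per group), with a range of -0.57 to -0.15 over all alternative fits.

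**Figure D3:**
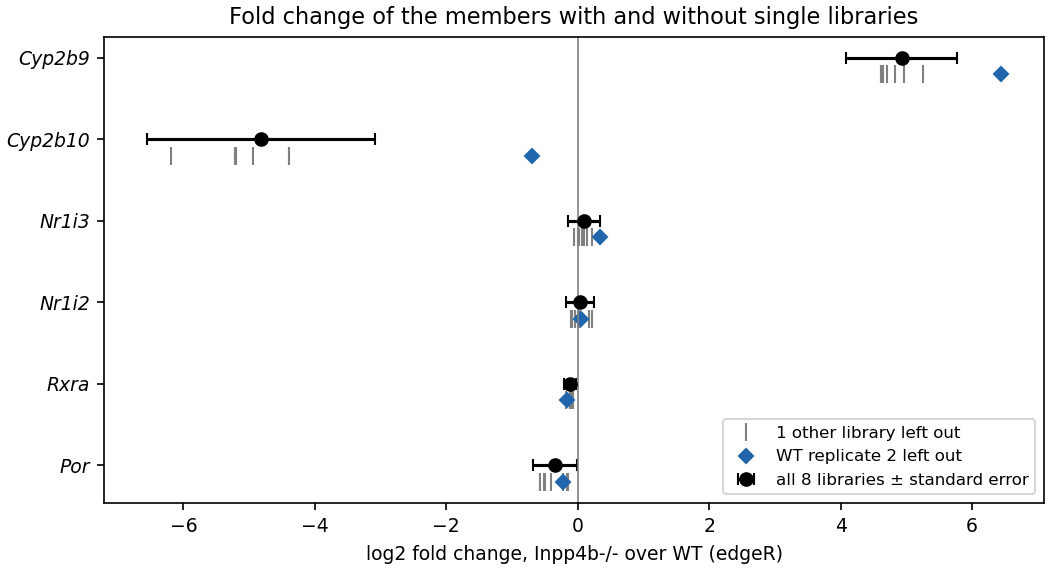
Log2 fold change of the 6 tested genes between genotypes (horizontal axis, HFD Inpp4b-/- over HFD WT) from edgeR. Black points with bars are all 8 libraries ± standard error, blue diamonds leave out HFD WT replicate 2 and grey ticks leave out 1 of the other libraries. *Cyp2b10* moved from -4.82 to -0.69 without HFD WT replicate 2, *Cyp2b9* from 4.93 to 6.44, and the receptor genes and *Por* stayed between -0.57 and 0.34 in these fits.

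The members differed in how much they varied among mice of 1 genotype. The SD of log2 CPM of *Cyp2b10* was 3.05 in HFD WT and 2.72 in the libraries labelled HFD Inpp4b-/-, and only 8 and 6 of the 14866 tested genes varied more. The first value rests on replicate 2 (86.83 CPM against at most 1.785 CPM). The second rests on replicates 1 and 2 with 0 counts, where the prior count sets log2 CPM. For *Cyp2b9* the SD was 1.57 and 1.13, with 189 and 357 genes varying more. Its HFD WT replicate 2 was also far from the others (10.33 CPM against at most 1.659 CPM). *Rxra*, at 0.0984 and 0.121, was below the median of all tested genes, 0.265 and 0.219. *Nr1i3* (0.526 and 0.285), *Nr1i2* (0.400 and 0.335) and *Por* (0.470 and 0.704) were above it.

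Ordered by level per length in HFD WT, *Por* was highest (158 RPKM), followed by *Rxra* (87.0), *Nr1i2* (39.7), *Cyp2b10* (10.7), *Nr1i3* (8.16), *Cyp2b9* (1.87) and *Cyp2b13* (0.0294 RPKM). *Nr1i2* and *Cyp2b10*, *Cyp2b10* and *Nr1i3*, and *Nr1i3* and *Cyp2b9* had overlapping ranges over the 4 libraries, and the other neighbours did not. In the libraries labelled HFD Inpp4b-/- the mean levels were *Por* 125, *Rxra* 80.3, *Cyp2b9* 58.1, *Nr1i2* 40.5, *Nr1i3* 8.75, *Cyp2b13* 0.535 and *Cyp2b10* 0.384 RPKM. There *Cyp2b9* stood between *Rxra* and *Nr1i2* with a range of 15.6 to 92.0 RPKM that overlapped both. *Cyp2b10* owed its rank in HFD WT to replicate 2, and without that library its mean was 0.614 RPKM, below *Nr1i3* (6.88) and next to *Cyp2b9* (0.660 RPKM). Exon length was the union over all transcripts of a gene, so genes with many transcripts, such as *Nr1i3*, have their level per length understated.

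The genes that CAR and PXR are known to induce, other than the members, were read next to the *Cyp2b* genes. Of 42 listed genes, 40 were in the table and 38 were tested, and none passed the threshold with edgeR, where 1.17% of all tested genes did. An unadjusted p under 0.05 was reached by 2 genes with a higher and 6 with a lower level in HFD Inpp4b-/-, against 6.8% and 7.14% of all tested genes. DESeq2, which called 688 genes in all, called 3 of the list, all lower. Of these, *Gadd45b* and *Gstm1* are among the 38 and *Sult1e1* was below the filter of edgeR's test. The median log2 fold change of the list was -0.02, against 0.0027 over all tested genes. The 4 genes of the list with the highest level were *Cyp3a11*, the main mouse CYP3A enzyme (log2 fold change -1.76, standard error 0.77), *Aldh1a1*, a retinaldehyde dehydrogenase (0.10, standard error 0.21), *Gstm1*, a glutathione transferase (-0.70, standard error 0.24), and *Cyp1a2* (-0.25, standard error 0.25). *Cyp3a11* was at 889.1, 7866, 2169 and 2237 CPM in HFD WT replicates 1 to 4 and at 1781, 1145, 131.3 and 825.5 CPM in replicates 1 to 4 labelled HFD Inpp4b-/-. Replicate 2 of HFD WT was again the highest, and the groups overlapped.

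**Figure D4:**
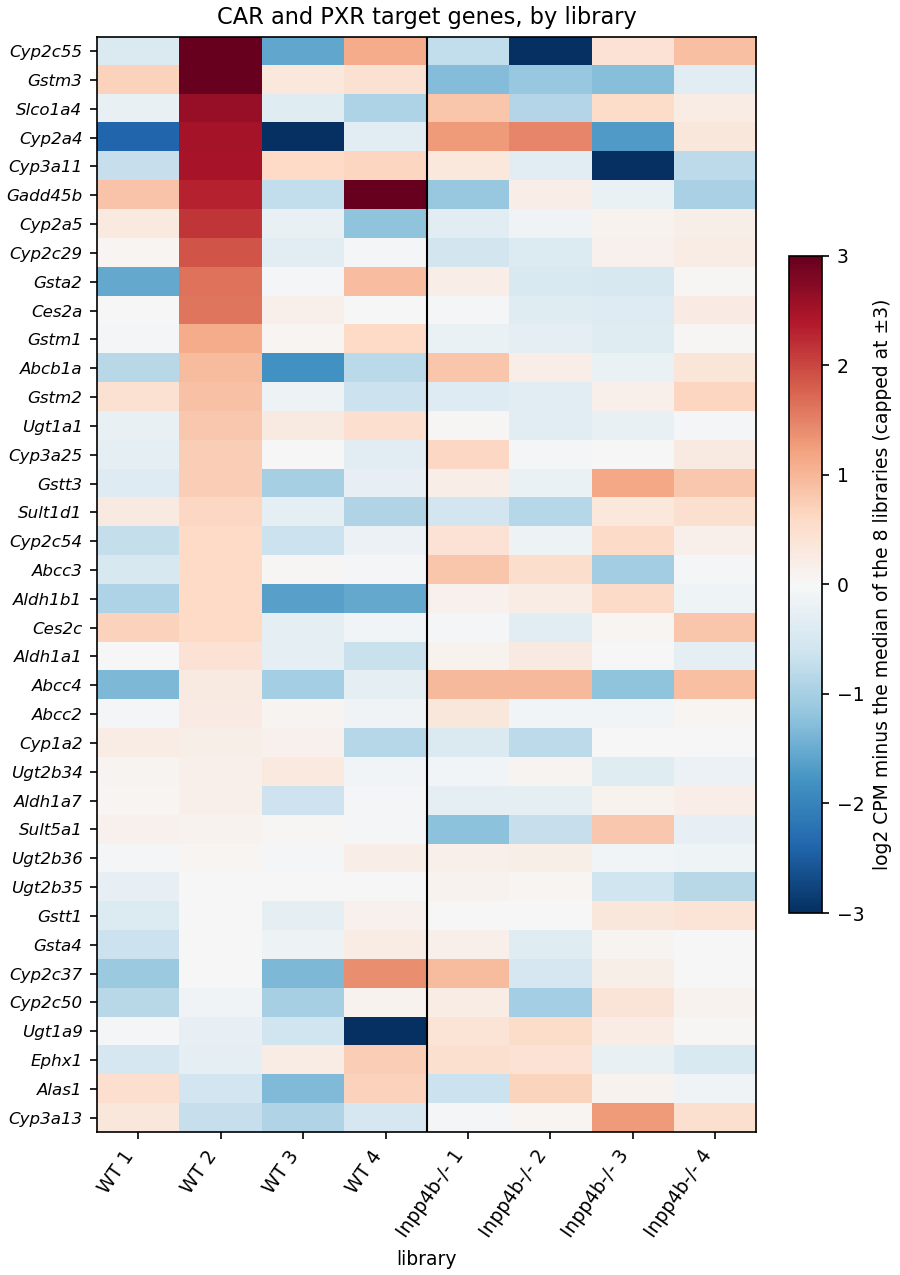
Level of the 38 tested CAR and PXR target genes in each library, as log2 CPM minus the median of the 8 libraries (colour, capped at ±3), ordered by the value in HFD WT replicate 2. HFD WT replicate 2 had the highest level of the 8 libraries for 18 of the 38 genes.

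HFD WT replicate 2, the library with 86.83 CPM of *Cyp2b10*, was the highest of the 8 libraries for 18 of the 38 tested target genes (47.4%), against 11.9% of all tested genes. Its log2 CPM was above the mean of the other 3 HFD WT libraries by more than 1 for 16 of the 38 (42.1%), against 5.15% of all tested genes, and below by more than 1 for none. The same library was the highest for 7 of the 16 pericentral markers (43.8%) and 3 of the 7 tested neighbours in the *Cyp2* cluster (42.9%). It was above by more than 1 for 2 of the 16 (12.5%) and 4 of the 7 (57.1%). Of 17 tested genes known for higher expression in female liver, this held for 10 (58.8%). The lists share genes, among them *Cyp2a4* and *Cyp2a5* in the cluster and target lists. The median of the difference was 0.92 over the target genes, 2.52 over the cluster, 1.31 over the female-liver genes and 0.38 over pericentral markers. Over all tested genes it was 0.02. The higher level was thus also found in lists that share genes with the target genes. Other lists were nearer the share of all tested genes. Above by more than 1 were 7.14% of periportal markers and 5.0% of partners, chaperones and coregulators of CAR and PXR. For factors under growth hormone it was 8.33%, for other liver nuclear receptors and regulators 11.1%, and for electron supply and haem synthesis 0%. The most extreme target gene, named after the values were seen, was *Cyp2c55*, a P450 of arachidonic acid metabolism. It was at 64.09 CPM in HFD WT replicate 2 against at most 3.341 CPM in the other 7 libraries. *Gstm3*, a glutathione transferase, was at 1054 CPM there and at 19.59 to 78.14 CPM in the others. Among the members, this library was highest for *Cyp2b10*, *Nr1i3* and *Por*. Without it, 345 genes passed edgeR's threshold in all, against 174 with all 8 libraries. Of the target genes 2 passed in that fit, *Gstm3* (log2 fold change -1.45, standard error 0.24, edgeR's adjusted p = 0.037) and *Aldh1b1* (1.55, standard error 0.21, edgeR's adjusted p = 0.0199). Without HFD WT replicate 3, where 110 genes passed in all, *Gadd45b* alone of the target genes passed (-2.78, standard error 0.51, edgeR's adjusted p = 0.0879).

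None of the tested neighbours of the *Cyp2b* genes passed edgeR's threshold, which 1.17% of all tested genes passed. With so few genes tested, none passing is near that share and says nothing particular about the neighbours. Of the other 10 listed *Cyp2* genes of this cluster on chromosome 7, 8 were in the table and 7 were tested. By edgeR 0 were called and 0 had an unadjusted p under 0.05, which 6.8% (higher) and 7.14% (lower) of all tested genes had. DESeq2 called none of them. The median log2 fold change was -0.01. *Cyp2f2*, *Cyp2a12*, *Cyp2a5* and *Cyp2a22* had the highest levels, with log2 fold changes of -0.01, 0.18, -0.82 and 1.55. *Cyp2a5*, the coumarin hydroxylase, was at 925.9 CPM in HFD WT replicate 2 and at 91.29 to 257.4 CPM in the other 7 libraries. *Cyp2a22* passed edgeR's threshold without HFD WT replicate 2 (log2 fold change 2.92, standard error 0.64, edgeR's adjusted p = 0.0836).

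Beside *Por*, 16 genes of electron supply to P450s and of haem synthesis were tested, and none passed edgeR's threshold (1.17% of all tested genes did). At an unadjusted p under 0.05 there were 1 higher and 0 lower, against 6.8% and 7.14% of all tested genes. DESeq2 called 1 (*Alad*, log2 fold change 0.71). The median log2 fold change of the 16 was 0.06. The 4 with the highest level, *Pgrmc1*, *Cyb5a*, *Cyb5r3* and *Alas1*, had log2 fold changes of 0.08, -0.00247, 0.22 and 0.04. *Alad* also passed edgeR's threshold without HFD WT replicate 2 (edgeR's adjusted p = 0.0902).

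Of 20 genes for partners, chaperones and coregulators of CAR and PXR, 1 fell and none rose past edgeR's threshold (0.619% and 0.552% of all tested genes). At an unadjusted p under 0.05 there were 2 higher and 6 lower, against 6.8% and 7.14% of all tested genes, and the median log2 fold change was -0.14, with 15 of the 20 lower. The gene called was *Hsp90aa1*, a chaperone of the complex that holds CAR in the cytoplasm. It was at 425.0, 388.2, 360.9 and 602.6 CPM in HFD WT replicates 1 to 4 and at 254.2, 295.4, 228.5 and 223.5 CPM in replicates 1 to 4 labelled HFD Inpp4b-/-. The groups did not overlap, and the log2 fold change was -0.83 (standard error 0.17, edgeR's adjusted p = 0.0782). It did not pass without any 1 of the Inpp4b-/- replicates 1 to 4 or without HFD WT replicate 1 (edgeR's adjusted p = 0.206, 0.128, 0.197, 0.16 and 0.15) or with the replicate number as a block (0.28). *Prmt5*, a protein arginine methyltransferase, passed without HFD WT replicate 2 (log2 fold change -0.52, edgeR's adjusted p = 0.0836) and with DESeq2 (-0.45, DESeq2's adjusted p = 0.048).

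Among 27 tested genes of other liver nuclear receptors and regulators, none passed edgeR's threshold (1.17% of all tested genes did), and DESeq2 called none. At an unadjusted p under 0.05, 1 was higher and 1 lower, against 6.8% and 7.14% of all tested genes. The 4 with the highest level were *Hnf4a* (log2 fold change -0.19), *Cebpa* (0.09), *Cebpb* (-0.66) and *Nr1h4*, the bile acid receptor (0.07).

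*Cyp2b9* and *Cyp2b13* are known to be held at their sex-specific levels by factors under growth hormone, and 12 of these were tested. *Foxa2*, a pioneer factor of hepatocytes, rose, and none fell past edgeR's threshold (0.552% and 0.619% of all tested genes). It was at 28.58, 27.4, 25.0 and 42.28 CPM in HFD WT replicates 1 to 4 and at 60.72, 86.2, 54.09 and 74.08 CPM in replicates 1 to 4 labelled HFD Inpp4b-/-, without overlap. The log2 fold change was 1.16 (standard error 0.19, edgeR's adjusted p = 0.0351). It did not pass without Inpp4b-/- replicate 2 or HFD WT replicate 1 (edgeR's adjusted p = 0.109 and 0.103). At an unadjusted p under 0.05, 5 of the 12 were higher and 0 lower, against 6.8% and 7.14% of all tested genes, and the median log2 fold change was 0.26. By sign, 8 of the 12 were higher and 4 lower. The lower ones were *Bcl6* (-1.12), *Cux2* (-0.49), *Trim24* (-0.46) and *Socs2* (-0.16), none of them called. DESeq2, which called 688 genes in all, called *Foxa2* and *Foxa1*, a related factor (log2 fold change 0.83, DESeq2's adjusted p = 0.052).

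Of 30 other genes known for higher expression in female liver, 26 were in the table and 17 were tested. None passed edgeR's threshold (1.17% of all tested genes did). At an unadjusted p under 0.05 there were 3 higher and 1 lower, against 6.8% and 7.14% of all tested genes. DESeq2, which called 688 genes in the table of 18095, called 6 of the 26. *Hao2*, *Ntrk2* and *Slc22a27* were higher and *Cyp3a16*, *Cyp4a14* and *Sult1e1* lower. Of these, *Hao2*, *Cyp3a16* and *Sult1e1* were below the filter of edgeR's test. The median log2 fold change was 0.06. *Cyp4a14*, *Fmo1*, *Cyp39a1* and *Ntrk2* had the highest levels, with log2 fold changes of -0.999 (standard error 0.36), 0.15 (standard error 0.16), -0.21 (standard error 0.31) and 1.28 (standard error 0.34). Without HFD WT replicate 2, where 345 genes passed in all, 5 of the list passed, all higher in the libraries labelled HFD Inpp4b-/-. This library was the highest of the 8 for 7 of the 17 genes (41.2%).

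Levels of *Cyp2b* genes differ along the liver lobule, so zonal markers were read beside them. None of 16 pericentral and none of 14 periportal markers passed edgeR's threshold (1.17% of all tested genes did), and DESeq2 called none in either list. At an unadjusted p under 0.05 there were 0 higher and 2 lower pericentral and 2 higher and 0 lower periportal markers. Over all tested genes the shares were 6.8% higher and 7.14% lower. The median log2 fold changes of the pericentral and periportal lists were -0.20 and 0.24. *Cyp2e1*, *Rgn*, *Glul* and *Cyp1a2*, the pericentral markers with the highest levels, had log2 fold changes of -0.15, 0.07, -0.18 and -0.25. For *Alb*, *Pck1*, *Ass1* and *Arg1*, the highest periportal markers, they were 0.24, -0.53, 0.14 and -0.11. The part of zonation in the *Cyp2b* values was not tested.

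The genes most like *Cyp2b9* over the 8 libraries, by Pearson's r of log2 CPM among 11693 genes that averaged 50 counts or more, were the lincRNA AC121973.1 on chromosome 19 (r = 0.990), *Gipc1* (0.974), *Tenm3* (0.972), *Hadh* (0.971) and *Khdrbs3* (0.968). The first 3 passed edgeR's threshold, which a choice by likeness to a gene separated by group favours, so their passing adds nothing. *Gipc1* and *Tenm3* lie on chromosome 8, as *Inpp4b* does. The share of the candidate genes on that chromosome was not counted, and whether position bears on the likeness was not tested. For *Cyp2b10* they were *Hmgn2* (0.985), *Tom1l2* (0.979), *Polr3b* (0.973), *Pym1* (0.971) and *Mtfp1* (0.958), none of which passed. These r values describe 8 points that share the separation of the groups for *Cyp2b9*. For *Cyp2b10* they rest on the far HFD WT replicate 2 and on Inpp4b-/- replicates 1 and 2. The last have 0 counts of *Cyp2b10*, where the prior count sets log2 CPM.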

How the data were processed

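Liver RNA of 8 male mice, 4 per genotype, was sequenced from rRNA-depleted libraries, and each library was placed in its group by its label. The authors aligned the reads to GRCm38 with HISAT2 and deposited raw counts per gene from HTSeq. Which annotation release and strand setting they counted with is not given in the sources used here. All 18095 identifiers matched GENCODE M21. A deposited table of normalized values was not used. Counts were normalised by TMM and tested with edgeR 4.0.16 (R 4.3.3; filterByExpr, quasi-likelihood test, no covariate, Benjamini-Hochberg adjustment over 14866 genes). A gene was called at a false discovery rate under 10% and a fold change over 1.3, the thresholds of the study. The study applied them with DESeq2 to counts from HISAT2 and from STAR and kept genes that passed with both, so the calls here are not the same. CPM used the TMM-normalised totals, and log2 CPM a prior count of 2. Alternatives were DESeq2 1.42.0, other normalisations and filters, a block for the replicate number, and the omission of single libraries. The procedure was tested on simulated data. Members and gene lists were chosen with earlier results of these data known. Named were the members, *Inpp4b*, the called genes of each list or else its 4 most abundant, and the 5 genes most like *Cyp2b9* and *Cyp2b10*. Genes named outside this rule were chosen after their values were seen.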

Additional observations from a re-analysis of the deposited data

Results flagged for a closer look

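In 3 of 20 groups examined, 1 of the 4 libraries was separated from the rest by more than Dixon's 95% critical value, where chance gives about 1 in 20. All 3 were in HFD WT replicate 2. *Cyp2b9* was at 10.33 CPM there and at most 1.659 CPM in the other HFD WT libraries, *Cyp2b10* at 86.83 CPM against at most 1.785 CPM, and *Cyp2b13* at 0.2205 CPM against 0 CPM. The 3 values come from 1 library and are not independent. For *Cyp2b13* the other HFD WT libraries are all at 0, so any count would have passed the limit, and that group adds nothing to the number.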

How the results depend on the processing

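The number of differentially expressed genes (174) moved by less than 1.5 times when edgeR used upper quartile normalization (170) or the size factors of DESeq2 (170), and when the filter asked for 1 count in all (160) or for 10 counts or more in every library (140). DESeq2 called 688 genes, 2 members (*Cyp2b9* and *Cyp2b13*) and 3 CAR and PXR target genes, and the cause was not tested. Leaving out 1 library gave 53 to 345 genes (without Inpp4b-/- replicate 2 and without HFD WT replicate 2), 0 to 2 members and 0 to 2 target genes. The members called were *Cyp2b9* and *Cyp2b13* without HFD WT replicate 2, and none without Inpp4b-/- replicate 2 or 3 or HFD WT replicate 1. The log2 fold change of *Cyp2b9* ranged from 4.61 to 6.44 that of *Cyp2b13* from 3.60 to 8.0 and that of *Cyp2b10* from -6.20 to -0.69 over all alternatives. Leaving out 1 library gave -0.06 to 0.34 for *Nr1i3* and -0.10 to 0.21 for *Nr1i2*. Reversed signs were those of *Nr1i2* (-0.086, -0.036 and -0.099 without Inpp4b-/- replicate 4, HFD WT replicate 3 and HFD WT replicate 4) and *Nr1i3* (-0.064 without HFD WT replicate 4), none of them called. Depth limits *Cyp2b13*, at 60 counts or fewer per library.

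Replicate numbers are only names here, as the deviations of same-numbered libraries correlated at -0.114, -0.131, -0.01 and -0.17. A fit with a block for the replicate number called 26 genes and 1 member (*Cyp2b9*, log2 fold change 5.41), and *Cyp2b10* had a log2 fold change of -2.57.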

Other observations

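Among the libraries labelled HFD Inpp4b-/-, replicates 1 and 2 lay apart from replicates 3 and 4 for *Por* and *Cyp2b10*. They did so for some other liver genes, picked after their values were seen. *Nr1i2*, *Rxra* and *Foxa2* were not divided in this way, and the share of all genes that were was not counted. *Ass1*, a urea cycle enzyme, was at 1621 and 1307 CPM in replicates 1 and 2 and at 3286 and 3039 CPM in replicates 3 and 4. *Arg1*, the enzyme that closes that cycle, was at 897.6 and 758.4 CPM against 1593 and 1449 CPM, and *Cyp1a2* at 579.6 and 453.5 CPM against 775.9 and 797.0 CPM. The labels give no batch, litter or feeding state for these mice. The difference was not tested, and these genes do not show that the mice form subgroups.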
